A study of Homo sapiens with 76 samples.

Results

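Proteasome subunit genes were examined in 76 single HEK293 cells. The genes were chosen by symbol alone, as all rows of the count table named PSMA to PSMG followed by a number, which gave 43 of 17513 gene rows and 14036 of 1691762 UMIs (unique molecular identifiers, random tags by which PCR copies of a molecule are recognised and collapsed). Of the 48 human symbols of that form, 5 (PSMA1, PSMA2, PSMA8, PSMB8 and PSMB11) are not analysed here. HEK293 is an established human embryonic kidney line, here untreated and grown in DMEM with glutamine and fetal calf serum. All cells came from 1 microfluidic run, received spike-in RNA at a nominal 20000 molecules per cell, and were profiled at the 5' ends of polyadenylated RNA after 18 cycles of PCR. The labels give no compared group and name no separate cultures, so the cells are 1 sample, no test between groups was made, and values after ± are SDs over the 76 cells.

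Cells held 7305 to 43392 endogenous UMIs (median 20966) and 1390 to 3132 spike-in UMIs, and 5 cells had less than 10483 endogenous UMIs. Of 6 genes listed as markers of the line all were seen, with UCHL1 and VIM each in 70 cells, NEFM in 49, KRT18 in 45, NEFL in 26 and KRT8 in 19. Of the blood and immune markers listed, HBA1 gave 5 UMIs.

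The proteasome is the main protease of the cytosol and nucleus and degrades proteins tagged with ubiquitin. Its 20S core is a barrel of outer alpha rings, which gate entry, and inner beta rings, which carry the catalytic sites. The 19S particle caps the barrel, and its ATPase ring unfolds substrates, receptors of its base bind ubiquitin chains, and its lid carries the enzyme that removes them. Other activators can take the place of the 19S cap, and dedicated chaperones assemble each part without staying in the finished complex. Subunits of the core are built into it in equal number.

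Together the 43 genes gave 185 ± 80.8 UMIs per cell, from 59 to 385 with a median of 177. This was 0.827% ± 0.101 of a cell's UMIs, from 0.596% to 1.08%. Scaled by the spike-ins it came to an estimated 1640 ± 641 molecules per cell (728 to 3627), which rests on the nominal spike-in number and on equal capture of both kinds of RNA. The 20S core held 53.5% ± 6.67 of the proteasome UMIs and the 19S particle 32.4% ± 6.58. The assembly chaperones held 6.97% ± 2.65, the activators 5.98% ± 2.58 and the inhibitor PSMF1 1.17% on average. A cell showed a UMI for a median of 35 of the 43 genes (23 to 41), and the number rose with the cell's total UMIs (Spearman rho = 0.855 over 76 cells, given as a description). The median gene gave 3.42 UMIs per cell, against 0.132 over all 17513 genes. A total of 38 genes had a mean of at least 1 UMI, and those are the ones whose spread is described further on. The other 5 were PSMD9, PSME4, PSMB10, PSMD5 and PSMB9.

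**Figure D1:**
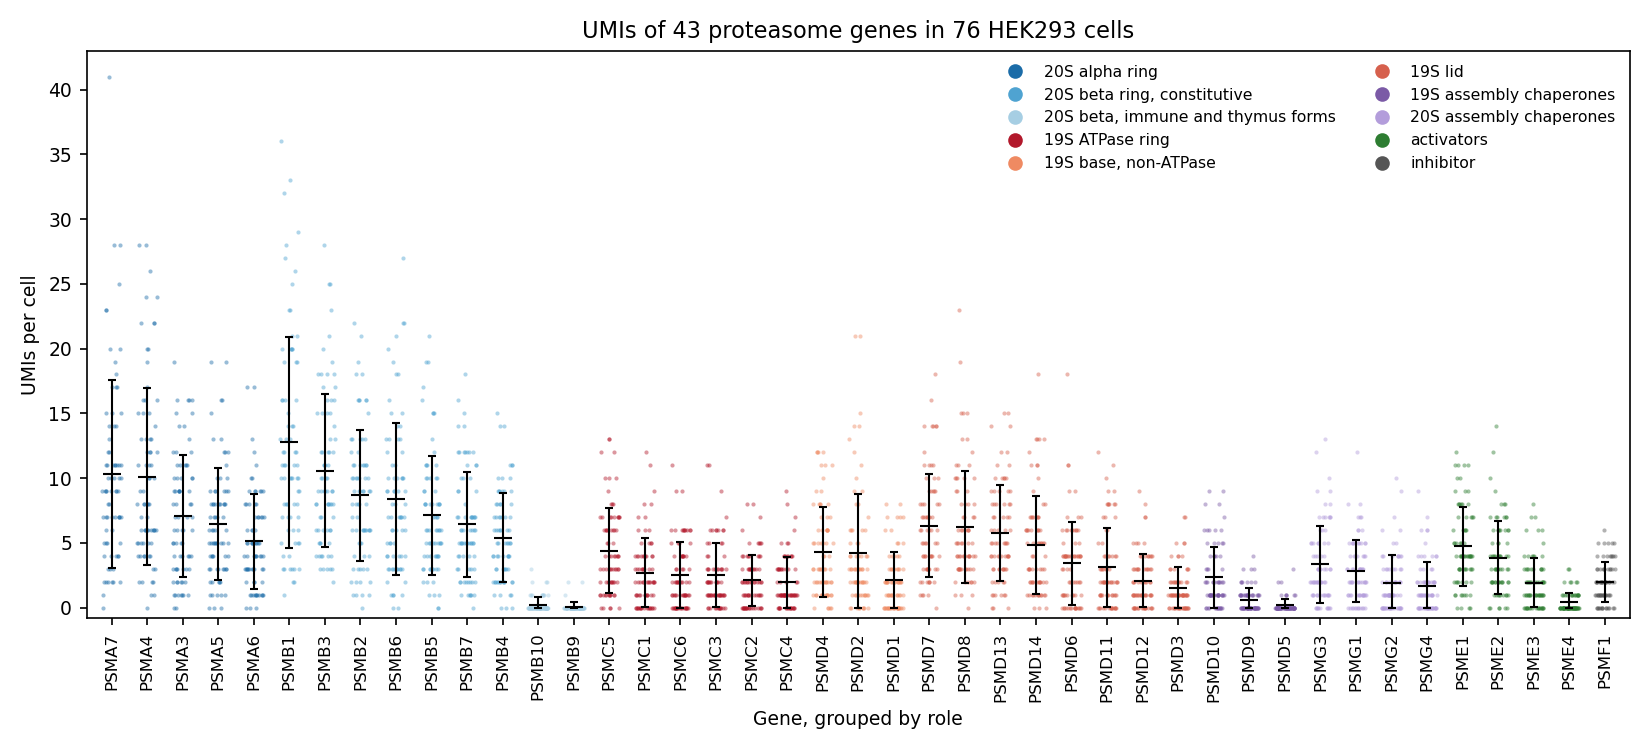
Each point is the UMI count of 1 gene in 1 of 76 cells, black dashes are means and bars are SDs (cut at 0), and genes are ordered by role and then by mean. The 5 alpha and 7 constitutive beta genes have means of 5.11 to 12.8 UMIs, the 17 genes of the 19S particle 1.50 to 6.33, and PSMB10 and PSMB9 lie near 0.

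In the alpha ring, PSMA7 gave 10.3 ± 7.24 UMIs per cell, with a lowest cell of 0, a median of 9 and a highest of 41. PSMA4 gave 10.1 ± 6.84 (0, median 8, 28), and its counting interval of the mean (exact Poisson 95%, 9.42 to 10.9) overlapped that of PSMA7 (9.59 to 11.1). PSMA3 stood at 7.07 ± 4.69 (0, median 6.5, 19). PSMA5 and PSMA6, at 6.47 ± 4.31 and 5.11 ± 3.64, were the lowest of the 5 alpha genes analysed here. All 5 code for structural subunits without catalytic activity, and each was seen in at least 73 of 76 cells. All 5 ranges overlapped, and every gene had 0 UMIs in at least 1 cell.

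In the beta ring, PSMB1, a subunit without protease activity, was the most abundant of the 43 genes at 12.75 ± 8.11 UMIs per cell (lowest 1, median 11, highest 36). PSMB3, likewise non-catalytic, followed at 10.6 ± 5.92 (2, median 9, 28). These were the only members with a UMI in all 76 cells (exact 95% interval from 95.3%), and 311 genes of the table were. PSMB2 gave 8.68 ± 5.06 (0, median 9, 22) and PSMB4 5.41 ± 3.45 (0, median 5, 15). The 3 catalytic subunits lay between: PSMB6, the caspase-like site, at 8.39 ± 5.88 (0, median 7, 27), PSMB5, the chymotrypsin-like site, at 7.12 ± 4.58 (0, median 6, 21), and PSMB7, the trypsin-like site, at 6.42 ± 4.08 (0, median 6, 18). From PSMB1 to PSMA6 the 12 constitutive core genes differed in mean by less than the SD of PSMB1 over cells, and each overlapped its neighbours in range. That SD describes single cells and not the uncertainty of a mean. The counting intervals of the means lay apart for PSMB1 (11.96 to 13.58) and PSMA6 (4.61 to 5.64).

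Immune forms of the catalytic subunits, which replace the constitutive ones in immune cells and after interferon, were close to the limit of detection. PSMB9, the immune counterpart of PSMB6, gave 5 UMIs in 3 cells (3.95% of cells, exact 95% interval 0.822% to 11.1%) against 638 UMIs of PSMB6. This is as many UMIs as HBA1, a haemoglobin gene these cells should lack, gave in 5 cells, so it is not read as expression. PSMB10, the counterpart of PSMB7, gave 18 UMIs in 13 cells (17.1%, 9.43% to 27.5%), or 3.56% of the UMIs of the pair (2.12% to 5.56%). The interval of HBA1 (6.58% of cells, 2.17% to 14.7%) overlaps that of PSMB10. PSMB7 exceeded PSMB10 in 73 cells and PSMB6 exceeded PSMB9 in 74. Of the 13 genes listed for antigen presentation and interferon response that were analysed here, 4 had a mean of at least 1 UMI. They were B2M, which codes for the light chain of the class I complex (10.2 ± 6.69 UMIs, in all 76 cells), IFITM1, an interferon-inducible membrane protein gene (1.36 ± 1.55, in 47 cells), and the class I genes HLA-C (1.32 ± 1.35) and HLA-B (1.25 ± 1.29). HLA-C and HLA-B were seen in 51 and 49 cells, and the interferon-inducible gene IFI6 gave 40 UMIs in 24. TAP1, the peptide transporter gene that lies next to PSMB9, gave 6 UMIs in 5 cells, IRF1 5 UMIs and ISG15 3. TAP2 is not analysed here.

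In the ATPase ring of the 19S base, PSMC5 gave 4.41 ± 3.27 UMIs per cell (lowest 0, median 4, highest 13). The other 5 ATPases lay lower and close together. PSMC1 had 2.70 ± 2.66, PSMC6 2.54 ± 2.54, PSMC3 2.51 ± 2.48, PSMC2 2.12 ± 1.98 and PSMC4 1.95 ± 1.97, with highest counts of 8 to 12 and a lowest of 0 for each. The counting intervals of PSMC1 (2.34 to 3.09) and PSMC3 (2.17 to 2.90) overlapped. PSMC1 is uncertain, since the table also lists a copy of it, PSMC1P1, with 23 UMIs against 205, and how shared reads were assigned is not given in the sources used here. Summed, the 6 ATPase genes gave 16.2 ± 9.01 UMIs, and 1 cell had none.

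Of the other base subunits, PSMD4, a ubiquitin receptor, gave 4.29 ± 3.45 UMIs per cell (0, median 3, 12). PSMD2 and PSMD1 are the large scaffold subunits, on which delivery factors dock. PSMD2 gave 4.24 ± 4.55 (0, median 3, 21), so its SD exceeded its mean, and PSMD1 gave 2.13 ± 2.20 (0, median 2, 8). Of the 8 lid genes with a PSM symbol, PSMD7 had the highest mean at 6.33 ± 3.99 (0, median 6, 18) with PSMD8 at 6.25 ± 4.33 (0, median 5, 23) and PSMD13 at 5.78 ± 3.71 (0, median 5, 15). PSMD14, the deubiquitinase that cuts chains from substrates and pairs with PSMD7, gave 4.84 ± 3.81 (0, median 4, 18). PSMD6 had 3.42 ± 3.19, PSMD11 3.11 ± 3.05, PSMD12 2.09 ± 2.02 and PSMD3 1.50 ± 1.61. These 8 lid genes together gave 33.3 ± 16.9 UMIs, from 9 to 88, without the lid gene SHFM1, whose symbol is of another form (15.9 ± 8.34 UMIs).

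Chaperone and activator genes of PSM symbol had means of 0.171 (PSMD5) to 4.75 UMIs (PSME1), all under those of the constitutive core genes. Of the 20S assembly chaperones, PSMG3 gave 3.34 ± 2.98 UMIs per cell, PSMG1 2.82 ± 2.39, PSMG2 1.91 ± 2.12 and PSMG4 1.64 ± 1.90. The table lists an antisense gene of PSMG3, PSMG3-AS1, with 11 UMIs. Of the 19S assembly chaperones, PSMD10 (gankyrin) gave 2.33 ± 2.37 UMIs, whereas PSMD9 was seen in 32 cells (42.1%, exact 95% interval 30.9% to 53.98%) and PSMD5 in 9 (11.8%, 5.56% to 21.3%). The activator genes PSME1 and PSME2, whose products form a shared interferon-inducible ring, gave 4.75 ± 3.05 (0, median 4, 12) and 3.86 ± 2.84 (0, median 3, 14). PSME3, which forms a nuclear ring of its own, gave 1.93 ± 1.91, so that PSME1 had 2.46 times its UMIs (counting interval 2.02 to 2.996) and exceeded it in 60 cells. PSME4, a large single-chain activator, was seen in 22 cells (28.9%, 19.1% to 40.5%). PSMF1, an inhibitor of the 20S core, gave 1.99 ± 1.54 UMIs with at most 6 in a cell.

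Among PSM symbols, the core and the 19S particle differed in level gene by gene. Constitutive core genes had a median of 7.76 UMIs per cell and genes of the 19S particle 3.11, and in 198 of the 204 pairings of a core gene with a 19S gene the core gene had the higher mean. The exceptions were PSMB4 and PSMA6, each below PSMD7, PSMD8 and PSMD13. Per gene, the 12 constitutive core genes had 2.50 ± 0.941 times the UMIs of the 19S particle (1.07 to 7.24), which was above 1 in 76 of 76 cells. Summed, the 14 core genes gave 98.7 ± 43.9 UMIs per cell (31 to 204) and the 17 genes of the 19S particle 60.2 ± 30.7 (14 to 163). The ratio of the sums was 1.77 ± 0.664 with a median of 1.68, and it was above 1 in 71 cells. The lowest ratio was 0.756, in a cell with 31 core and 41 19S UMIs, and the highest was 5.11, in a cell with 92 and 18. The core sum lacks PSMA1 and PSMA2, both constitutive, and the 19S sum lacks SHFM1 and the ubiquitin receptor gene ADRM1, which the symbol rule leaves out. With SHFM1 and ADRM1 counted, an alternative added after seeing the data, the 19S sum was 78.5 ± 37.9 UMIs, the ratio of sums 1.33 ± 0.458 and above 1 in 59 cells. The ratio per gene was then 2.10 ± 0.727 and above 1 in 76 cells, and the core gene had the higher mean in 210 of 228 pairings, since SHFM1 exceeded every core gene.

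**Figure D2:**
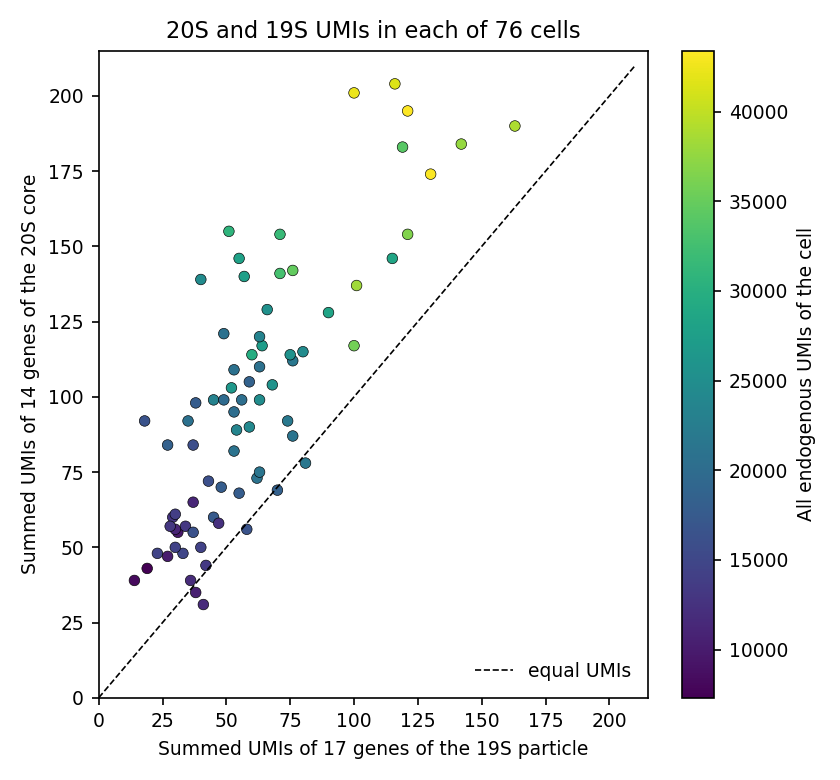
Each point is 1 of 76 cells, with summed UMIs of 17 genes of the 19S particle on the x axis and of 14 genes of the 20S core on the y axis, coloured by all endogenous UMIs of the cell, and the dashed line marks equal sums. In 71 cells the point lies above the line, and both sums rise with the total.

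Transcript length went along with this difference. A molecule counts once in this assay whatever its length, but reverse transcription must run from the poly(A) tail to the 5' end. The median length of a gene's protein coding transcripts (GENCODE 29) was 936 nucleotides over the 14 core genes and 1590 over the 17 genes of the 19S particle. Over the 43 genes the mean UMIs fell with length (rho = -0.343, across genes, which are not independent), as they did over 2651 genes with a mean of at least 1 UMI (rho = -0.363). Among genes shorter than the median of 1671.5 nucleotides of those 2651, the 10 constitutive core genes had a median of 7.76 UMIs (5.11 to 12.8) and the 9 genes of the 19S particle 4.29 (1.95 to 6.33). Divided by length, the medians over all 12 and 17 genes were 7.42 and 1.61 UMIs per kilobase, a gap that the division itself widens, since a molecule is counted once and the 19S transcripts are longer. The part of length in the difference was not tested further.

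Promoters are shown for the most abundant core gene and 19S gene of PSM symbol that a reference table holds, and for the gene of highest dispersion, since the assay counts 5' ends and so reads what these promoters start. The 250 bases before the RefSeq start are given (GRCh38.p14, matched by symbol), 5' to 3', for PSMB3 at chr17:38752491-38752740, plus strand, PSMD7 at chr16:74296564-74296813, plus strand and PSMD2 at chr3:184298991-184299240, plus strand. PSMB1, the most abundant of the 43, is 1 of 6 genes without an entry. Capitals mark matches, on either strand, to a CCAAT box (CCAAT), an Sp1 box (GGGCGG) or the antioxidant response element (TGACNNNGC), the kind of site bound by NFE2L1, an activator of proteasome genes.
PSMB3: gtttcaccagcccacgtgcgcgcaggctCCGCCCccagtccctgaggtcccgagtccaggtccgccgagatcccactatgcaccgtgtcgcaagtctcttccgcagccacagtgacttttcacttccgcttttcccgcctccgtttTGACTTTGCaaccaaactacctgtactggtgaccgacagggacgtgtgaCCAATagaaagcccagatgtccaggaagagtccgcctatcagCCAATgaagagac
PSMD7: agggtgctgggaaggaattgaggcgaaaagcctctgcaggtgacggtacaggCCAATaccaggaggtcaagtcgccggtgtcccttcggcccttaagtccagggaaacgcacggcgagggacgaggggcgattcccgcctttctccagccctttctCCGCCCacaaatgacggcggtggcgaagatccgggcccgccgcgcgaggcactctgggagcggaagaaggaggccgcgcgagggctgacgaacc
PSMD2: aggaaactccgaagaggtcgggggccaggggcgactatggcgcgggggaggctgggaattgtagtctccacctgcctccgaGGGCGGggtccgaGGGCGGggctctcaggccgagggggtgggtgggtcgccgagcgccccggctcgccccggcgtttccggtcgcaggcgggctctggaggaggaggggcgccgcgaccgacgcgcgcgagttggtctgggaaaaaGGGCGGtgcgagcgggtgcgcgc
PSMB3 held CCAAT boxes 55 and 13 bases before the start and the antioxidant response element 104 bases before it. It also held an Sp1 box 222 bases before the start. PSMD7 had a CCAAT box at 198 bases and an Sp1 box at 94, and PSMD2 had Sp1 boxes at 169, 156 and 23 bases. Of 37 proteasome promoters, TGACNNNGC was in 11 (29.7%), against 11.03% of 27305 promoters of equal length. Among constitutive core and 19S genes it was in PSMB3, PSMD3 and PSMD12 only. The rest were the immune form PSMB9, chaperone genes (PSMD5, PSMD9, PSMG1, PSMG2) and activator genes (PSME1, PSME2, PSME4). The pooled percentage therefore does not describe core and 19S genes. The Sp1 box was in 24 (64.9% against 42.3%), the CCAAT box in 16 (43.2% against 33.04%) and the ETS site CCGGAAG in 9 (24.3% against 8.82%). TATAAA was in 4 (10.8% against 11.1%), the NRF1 site in 3 (8.11% against 5.53%), the YY1 site AAGATGGC in 1 (PSMB5, 2.70% against 1.37%) and the heat shock element GAANNTTC in none (0% against 5.85%). A match is a run of letters and not a shown site of binding. Genes listed as regulators gave few UMIs, with NFE2L1 in 33 cells (0.605 ± 0.801 UMIs per cell), NFE2L2 in 30 and NRF1 in 15. Also on that list were NGLY1, whose product frees NFE2L1 of its sugars, in 29 cells, and AKIRIN2 in 25. Being listed does not mean that a gene's product acts on these promoters.

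Cell-to-cell spread was measured as the Pearson dispersion, the squared deviation from the count expected from a cell's total, divided by that expectation and averaged, for which counting alone gives 1. Over the 38 genes it had a median of 1.88 (1.22 to 2.76), against 1.76 over the 2810 genes with a mean of at least 1 UMI and 1.53 over 36 spike-ins, whose highest value was 2.196. A total of 7 of the 38 genes lay above that highest spike-in (18.4%), and so did 21.6% of the 2810 genes, so the share of proteasome genes was near that of all genes. They were PSMD2 (2.76), PSMA4 (2.68), PSMB1 (2.38), PSMD6 (2.38), PSMB5 (2.31), PSMD13 (2.30) and PSMA7 (2.24). Just below lay PSMB2 (2.15) and PSMD14 (2.14). With the cell of its highest count left out, PSMD6 fell to 1.93, PSMA7 to 1.99 and PSMB5 to 2.09, which leaves 4 of the 7 above the limit. With the cell of its highest share left out instead, PSMD13 fell to 1.81, PSMD6 to 1.93, PSMB5 to 2.16 and PSMA7 to 2.193, and PSMB1 (2.2005), PSMA4 (2.44) and PSMD2 (2.51) remained above it. PSMD6 had 18 UMIs in that cell and 11 in the next. Both counts keep the spike-in limit of all cells, and genes outside the family were not recomputed this way. They therefore have no share over all genes beside them, and are not read as a trait of proteasome genes. Among genes with a mean of at least 3 UMIs, 11 of 24 proteasome genes (45.8%) and 547 of 1096 genes (49.9%) lay above the highest spike-in of that range.

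Dispersion grows with abundance, so the spread beyond counting was also put as a squared coefficient of variation. Its median over the 38 genes was 0.150, a coefficient of 38.8%, against 0.240 (48.95%) over the 2810 genes, and 13 of the 38 lay above that all-gene median. PSMB3 had the lowest value of the 38 (0.0367) and a dispersion of 1.31, below the spike-in median. PSME1 (0.0677) and PSMF1 (0.0528) were low too. PSMG4 (0.545), PSMD2 (0.476) and PSMG2 (0.451) were high. The value falls with abundance over all genes (rho = -0.641), and proteasome genes were more abundant than the median tested gene (4.26 against 2.32 UMIs), so the medians do not compare genes of equal level. In spike-ins the median was 0.0601.

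**Figure D3:**
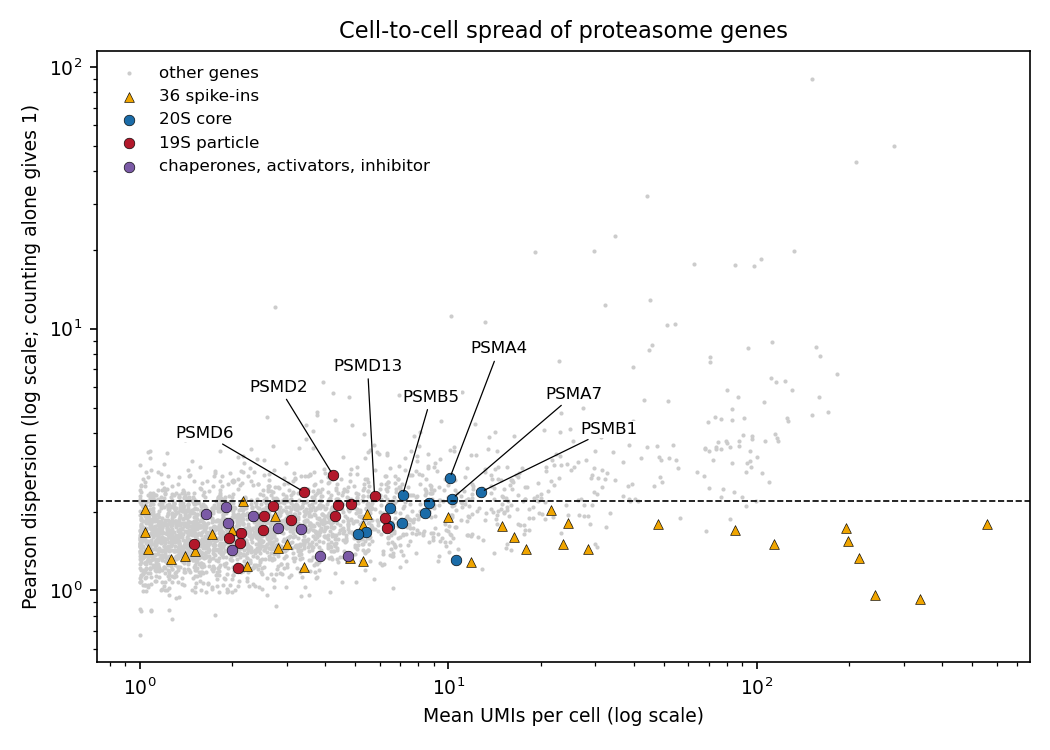
Pearson dispersion against mean UMIs per cell, both on log scales, for genes with a mean of at least 1 UMI, with the dashed line at the highest of 36 spike-ins (2.196). The 38 proteasome genes lie between 1.22 and 2.76, and the 7 named ones lie above the line.

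The sums of the parts spread unequally. Beyond counting, the summed 19S UMIs varied between cells by a coefficient of 20.9% and the summed 20S UMIs by 11.4%. The members' own spread with no shared part would give 11.9% for the 19S sum and 9.73% for the 20S sum. The 19S share of a cell's UMIs was 0.269% ± 0.0653 (0.109% to 0.419%) and the 20S share 0.442% ± 0.0773 (0.267% to 0.589%). These are coefficients of 24.3% and 17.5%, where counting alone would give 14.6% and 11.2%. Coefficients add as squares, and the values beyond counting give deep cells more weight, so they are not differences of these. Without the 5 shallow cells the values beyond counting were 20.9% and 11.4%, and with cells thinned to 10940 UMIs 20.5% and 12.1%.

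Correlations between single proteasome genes had a median near that of all gene pairs. The 703 pairs among the 38 genes had a median rho of 0.00729 over the 76 cells, and 52.8% of them were above 0. All 3946645 pairs among the 2810 genes had a median of 0.0144 with 54.5% above 0. Within the 19S particle the median was 0.0365 (136 pairs, 60.3% above 0) and within the 20S core 0.0323 (66 pairs, 63.6%). Between the 2 parts it was -0.0113 (204 pairs, 47.5%). Lid genes had 0.0691 among themselves (28 pairs), beta genes 0.0326 (21 pairs) and alpha genes -0.00595 (10 pairs). All cells share 1 pool of libraries and differ in depth, which sets the noise of each share. A median of 46.8% of a gene's dispersion lay beyond counting, and spike-ins too exceeded counting (median dispersion 1.53). Weak correlations between such counts are therefore not read as a finding.

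The highest rho was 0.474, between PSMC5 and PSMD8, an ATPase and a lid gene. PSMC3 followed with the lid gene PSMD12 (0.417), and PSMA5 with PSMC4 (0.380). The lowest values were -0.422 for PSMB7 with PSMG3, -0.383 for PSMD6 with PSME2 and -0.378 for PSMB5 with PSMC3. In all, 11 pairs (1.56%) lay above 0.3, as did 1.16% of all pairs. Set against the summed share of the other 42 genes, PSMA3 (rho = 0.266) and PSMB7 (0.265) were the highest and PSMG3 (-0.280) was the lowest, with a median of 0.0262 and 24 of 38 above 0. PSMA3 and PSMB7, 2 of the 38, lay above 0.233. That value is the 95th percentile of rho between the 2772 genes outside the family and the summed share of all 43. By that choice 5.01% of the outside genes exceeded it. The 2 of 38 are a similar share, so they do not set the family apart.

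Subunits of TRiC, the cytosolic chaperonin, which is another ring-shaped complex of fixed composition, gave other values over the same cells. Its 8 genes (6.64 to 13.2 UMIs per cell) had a median rho of 0.180 (0.0170 to 0.398), and all 28 pairs were above 0. The part of dispersion beyond counting was similar in TRiC (median 48.9%) and in the proteasome genes (46.8%), while TRiC genes were more abundant (median 9.17 against 4.26 UMIs). The summed TRiC UMIs varied beyond counting by 19.5%, where its genes' own spread would give 10.1%. The difference between the complexes was not tested.

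**Figure D4:**
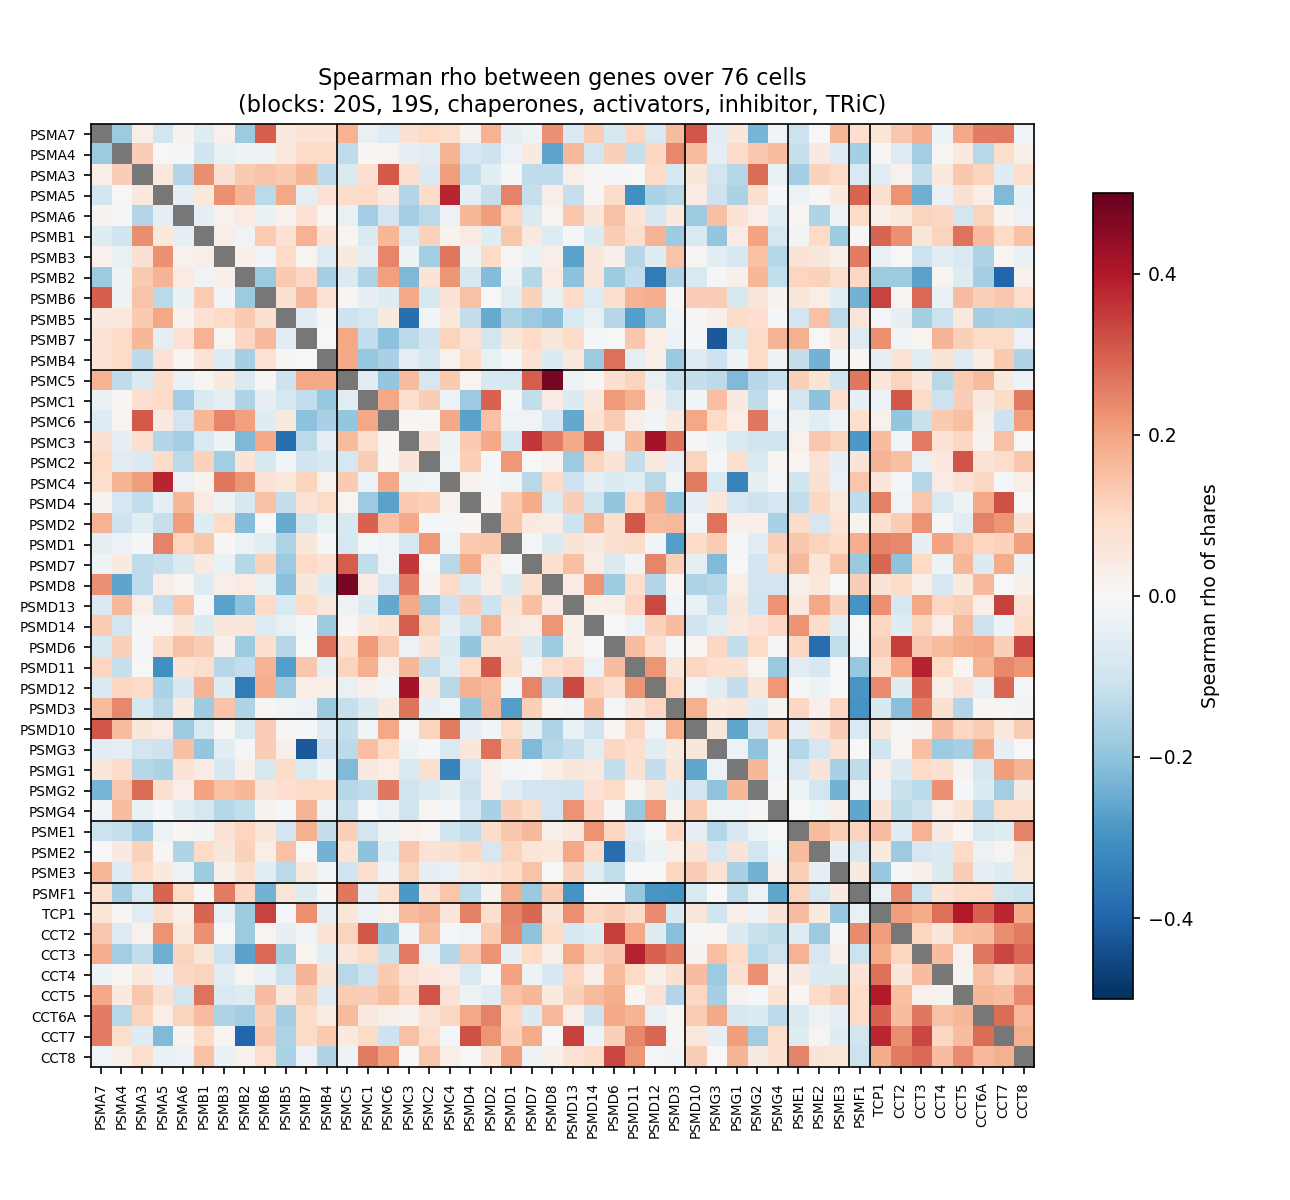
Spearman rho between the shares of 38 proteasome genes and 8 TRiC genes over 76 cells, from blue (negative) to red (positive), with lines between the 20S core, the 19S particle, chaperones, activators, the inhibitor and TRiC. The TRiC block at the lower right is above 0 throughout, and the proteasome blocks mix both signs, with a median of 0.00729.

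At the level of the sums, UMIs of the 20S core and the 19S particle rose together with depth (Pearson r = 0.808, rho = 0.769), as both follow the cell's total (r = 0.961 for all 43 genes). As shares of a cell's UMIs they did not (r = -0.0914, rho = -0.0653, and r = -0.0528 without the 2 cells of most extreme core share). Each of 4 quantities (the share of all 43 genes, the 20S share, the 19S share and their ratio) was set against 10 other measures of the cell, with no p given. The largest value was that of the 19S share with the share of UMIs from the mitochondrial genome (6.12% ± 2.30, 2.02% to 12.5%), at rho = -0.477 (r = -0.432, and -0.443 without the 2 extreme cells). The 20S share had rho = -0.00298 with it. As a share of UMIs outside the mitochondrial genome, the 19S sum had rho = -0.384 and the 20S sum 0.114. Of the 17 genes of the 19S particle 13 had a negative rho with the mitochondrial share, as did 6 of the 12 constitutive core genes and 54.1% of 2749 other genes. The lowest were PSMC5 (-0.387), PSMD8 (-0.354) and PSMD7 (-0.286), whereas PSMC6 had 0.286. The median of the 17 genes was -0.0447, and that of the other genes -0.0170. TRiC had rho = -0.367 with the mitochondrial share. The 19S share also rose with the mean transcript length of the cell's other UMIs (rho = 0.281, against -0.158 for the 20S share), and the part of that length in the mitochondrial relation was not tested, while length and mitochondrial share had rho = -0.0372 with each other.

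**Figure D5:**
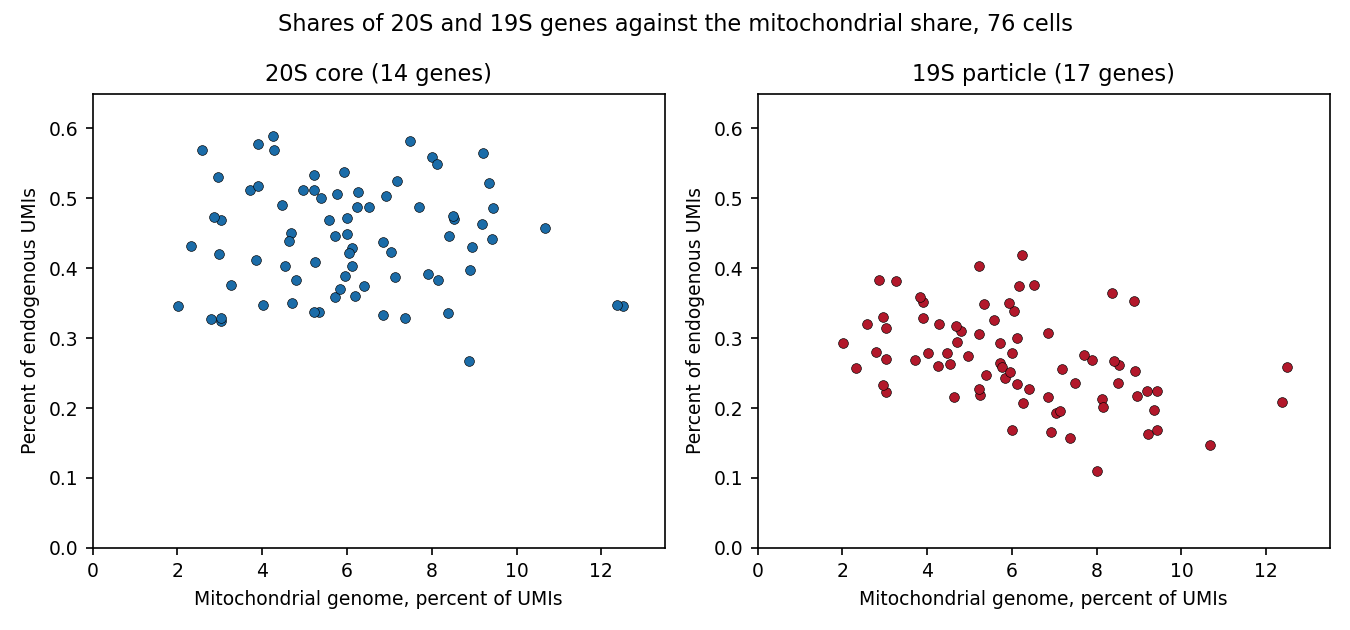
Share of endogenous UMIs taken by 14 genes of the 20S core (left) and 17 genes of the 19S particle (right) against the share from the mitochondrial genome, 1 point for each of 76 cells. The 19S share is lower in cells of high mitochondrial share (rho = -0.477), and the 20S share shows no such slope (rho = -0.00298).

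The rest of the pathway was seen in the same cells. Of the genes for ubiquitin itself, RPS27A, whose other product is a ribosomal protein, gave 92.8 ± 39.4 UMIs per cell and the polyubiquitin gene UBB 38.5 ± 18.8. Among proteasome genes with other symbols, SHFM1, a small lid subunit, gave 15.9 ± 8.34 UMIs and POMP, the maturation factor of the 20S core, 15.6 ± 7.59, both above PSMB1 and both in all 76 cells. ADRM1, a ubiquitin receptor of the 19S particle, gave 2.36 ± 2.31 and its partner UCHL5 2.43 ± 2.50. USP14, a deubiquitinase of the 19S particle, gave 1.50 ± 1.96. Of the genes that deliver substrates, the unfoldase VCP gave 3.88 ± 2.48 and its cofactor UFD1L 3.53 ± 2.52.

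Among 1072 genes outside the family with a mean of at least 3 UMIs, those of high rho with the summed proteasome share included TCP1, a TRiC subunit (0.417), NCL (0.411), EIF4EBP1 (0.395) and BCAP31 (0.341). The lowest were MT-ND3 (-0.340), TXN (-0.293), MT-ND2 (-0.281), RPS4X (-0.279) and RPL32 (-0.278). The median over these genes was 0.0305, and the named ones are the ends of that range, chosen for their values.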

How the data were processed

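The deposited table holds whole-number UMI counts per gene and cell, not normalized, as the authors made them. Per the submitters' processing notes, the tools were STAR 2.4.0a and cutadapt 1.2.1 and the build was GRCh37 (hg19), without the role of each. For the counting tool, annotation, strand setting and cell filter the answer is not given in the sources used here. A row that repeats the column numbers was left out (0.197% of the sum of values), which left 17513 gene rows and 80 spike-in rows. Each column was matched to a cell by its number, with 0 unmatched.

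Computation used Python 3.11.15, numpy 2.4.6, scipy 1.17.1 and pandas 2.3.3, was tested on simulated data, and made no test between groups. A share is a gene's UMIs in percent of all UMIs of that cell outside the spike-ins. Intervals are 95% (Clopper-Pearson for shares of cells, Poisson for mean UMIs) and cover counting error only. Correlations are Spearman's unless named. No doublet caller was run. The members, lists, markers and the rule for named genes were chosen with earlier results of these data known. That rule names all members, the 3 highest and 3 lowest pairs, and the 5 highest and 5 lowest outside genes, and some genes of the lists are not reported here. The table also lists 8 pseudogenes of the family (47 UMIs) and 3 antisense genes (14 UMIs), which are not members. Alternatives were other scales, depths, minimum levels and groupings, and a correction for molecules that share a tag, with 20736 tags as the labels' oligonucleotide gives (the column names carry a longer one). The labels name no separate cultures, so the spread is that between cells.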

Additional observations from a re-analysis of the deposited data

How the results depend on the processing

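Of 35 values under the main other settings, 25 moved by less than the spread between cells, genes or pairs. Counts and summed spreads had to stay within 1.5 times, and correlations of summed shares within a limit set by the number of cells. So did 110 of 115 added after seeing the data, of which 86 are levels of single genes. The spread between cells is wider than the uncertainty of a mean over 76 cells, so this is a loose check. The ratio of sums counted as unmoved at 1.33 with SHFM1 and ADRM1 in the 19S, against 1.77. Moving chaperones into the 19S could not change the share of all 43 genes. With mitochondrial genes, ribosomal protein genes and the 10 most abundant genes taken out of the totals, the proteasome share was 1.29%. A cell showed a mean of 34.3 of the 43 genes, 28.01 when 2 UMIs were required and 29.8 when cells were thinned to 10940 UMIs. Genes above the highest spike-in numbered 7, against 11 of 24 when the mean had to reach 3 UMIs, 0 of 33 with thinned cells (7.89% of all genes, spike-ins not thinned), 26 of 38 with spike-in UMIs as the scale (46.8% of all genes), 4 with each gene's cell of highest count left out and 3 with its cell of highest share left out. The counts with a cell left out keep the spike-in limit of all cells and were not made for all genes. The median dispersion was 1.504 thinned (all genes 1.495) and 2.34 with the spike-in scale (all genes 2.15). With that scale a cell's RNA content enters every gene: the median pairwise rho was 0.208 (all genes 0.177, TRiC 0.529), the rho of 20S with 19S was 0.667, and the spread beyond counting was 44.5% for the 19S sum and 36.4% for the 20S sum. Otherwise the median pairwise rho ran from 0.00465 to 0.0222 and the rho of 20S with 19S from -0.159 to -0.00725. Within that range the proteasome median was above that of all genes with thinned cells (0.0104 against 0.00296). It was also above at a mean of at least 3 UMIs (0.0178 against 0.00799), and below in the remaining settings. The rho of the 19S share with the mitochondrial share ran from -0.521 to -0.384. With thinned cells the core exceeded the 19S particle per gene in 70 of 71 cells. At a few UMIs per gene and cell, depth limits every correlation between single genes. No paired analysis was possible because the labels give 1 group.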

Other observations

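The proteasome share bore little relation to the cell cycle lists. Its rho was 0.0663 with the share of S phase genes and -0.0512 with that of G2 and M phase genes over 76 cells. The 2 parts differed in sign with the S phase share, at 0.214 for the 19S particle and -0.176 for the 20S core, and the ratio of core to 19S UMIs had -0.265. Without the 2 cells of most extreme S phase share the Pearson r of that ratio went from -0.248 to -0.191. These are weak values over cells of 1 run, given as a description.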
